A study of Mus musculus with 16 samples.

Results

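The integrated stress response genes described here are Atf4, Ddit3, Trib3, Chac1 and Ddit4, 5 genes chosen by name among the 2247 genes of the series' expression tables. All 5 have a row in the authors' table of newly made RNA in erythroid cell lines, which lists 1556 genes, and 1 of them, Chac1, has a row in the authors' table of fetal liver RNA, which lists 793 genes. Together they are the nearest gene of 6 of the 8084 ChIP-seq peaks in the authors' annotated lists.

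The cell lines compared were K1-NanER and K1-ER, which are K1 erythroblasts, a line that lacks KLF1, carrying a tamoxifen-inducible fusion of the oestrogen receptor with either Nan-KLF1 or KLF1, and parental K1. KLF1 is the erythroid transcription factor that binds CACCC elements, and Nan is a mutation of its DNA-binding zinc fingers. The K1-NanER and K1-ER libraries came from 2 clones of each line, and the K1 libraries from parental cells, so any difference between clones enters the values. All cells got 200 nM 4-hydroxytamoxifen per the labels, but the headings of the authors' table name the drug for K1-NanER and K1-ER and not for K1, so a part of the drug in the differences from K1 cannot be told apart if K1 went without it. RNA made during 1 h was labelled with 500 uM 4-thiouridine (4sU). The liver samples were 3 Nan/+ and 3 wild-type (+/+) fetal livers at embryonic day 14.5, whole organs that hold several cell types, sequenced after globin RNA had been removed. Each ChIP library, 1 for Nan-KLF1 and 1 for KLF1, was made from 3 pooled replicates after 3 h of the drug. Levels are in FPKM as the authors gave them (fragments per kilobase of transcript, scaled to the library), 1 value per group. No value of a single library stands behind them here, so the spread between replicates and the depth are unknown, and the authors' q value, their p-value corrected for the number of genes, is the measure of error.

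Cells that lack heme, amino acids or folding capacity in the endoplasmic reticulum phosphorylate the initiation factor eIF2, which lowers protein synthesis as a whole and favours translation of ATF4. ATF4 is a transcription factor that switches on genes of amino acid supply, and also Ddit3, which encodes the factor CHOP. In red cell precursors the eIF2 kinase HRI, the product of Eif2ak1, is held inactive by heme, and this links the response to heme supply. Trib3 encodes a pseudokinase that binds ATF4 and restrains it, Chac1 an enzyme that cleaves glutathione, and Ddit4 the protein REDD1, which inhibits the growth kinase complex mTORC1.

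The promoters of Trib3, Chac1 and Ddit4 are shown because they differ in how the factors' peaks lie on them: both factors had a peak on the Trib3 promoter, neither had a peak annotated to Chac1, and the only peak annotated to Ddit4 lay far from its start. Each sequence is the 250 bases before the gene's start in RefSeq (build GRCm38.p6), written along the strand of the gene; all 5 genes were found in that table. In Trib3 (chr2:152344061-152344310, minus strand) the capitals mark GGGTAGGG and GGGTTGGG, the reverse complements of CCCTACCC and CCCAACCC, which are the central motifs the authors gave for the Nan-KLF1 and the KLF1 peak there. In Chac1 (chr2:119350992-119351241, plus strand) they mark TTGCATCA, the reverse complement of the C/EBP-ATF response element TGATGCAA, to which ATF4 can bind with a C/EBP partner, and CCCCGCCC, the central motif of the KLF1 peak at Atf4. In Ddit4 (chr10:59951771-59952020, minus strand) they mark GGGCGTGG, the reverse complement of CCACGCCC, the central motif of the distant KLF1 peak.
Trib3: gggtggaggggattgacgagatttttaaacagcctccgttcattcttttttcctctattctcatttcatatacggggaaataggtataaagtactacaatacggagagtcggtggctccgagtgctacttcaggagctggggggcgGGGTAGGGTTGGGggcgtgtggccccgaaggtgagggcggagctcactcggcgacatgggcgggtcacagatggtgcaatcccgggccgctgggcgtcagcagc
Chac1: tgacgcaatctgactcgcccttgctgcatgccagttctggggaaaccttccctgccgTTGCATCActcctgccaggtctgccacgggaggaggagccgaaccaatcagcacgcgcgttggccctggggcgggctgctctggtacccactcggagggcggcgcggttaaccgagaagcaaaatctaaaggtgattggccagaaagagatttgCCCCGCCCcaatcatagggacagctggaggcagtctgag
Ddit4: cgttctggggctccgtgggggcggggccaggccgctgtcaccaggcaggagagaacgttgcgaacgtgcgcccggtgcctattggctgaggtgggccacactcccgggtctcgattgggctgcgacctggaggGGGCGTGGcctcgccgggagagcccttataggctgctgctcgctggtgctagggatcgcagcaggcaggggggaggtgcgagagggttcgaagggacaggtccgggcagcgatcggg

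The authors' calls against K1 differed between the lines for all 5 genes, but the lines were not tested against each other. With KLF1-ER, Atf4, Ddit3 and Ddit4 rose against K1, and Trib3 and Chac1 did not pass the authors' test. With Nan-KLF1-ER, Trib3 and Chac1 fell against K1, and Atf4, Ddit3 and Ddit4 did not pass. No member passed in both lines, where 25.1% of the table's genes did, and a row in this table itself requires a q of at most 0.05 in at least 1 line.

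**Figure D1:**
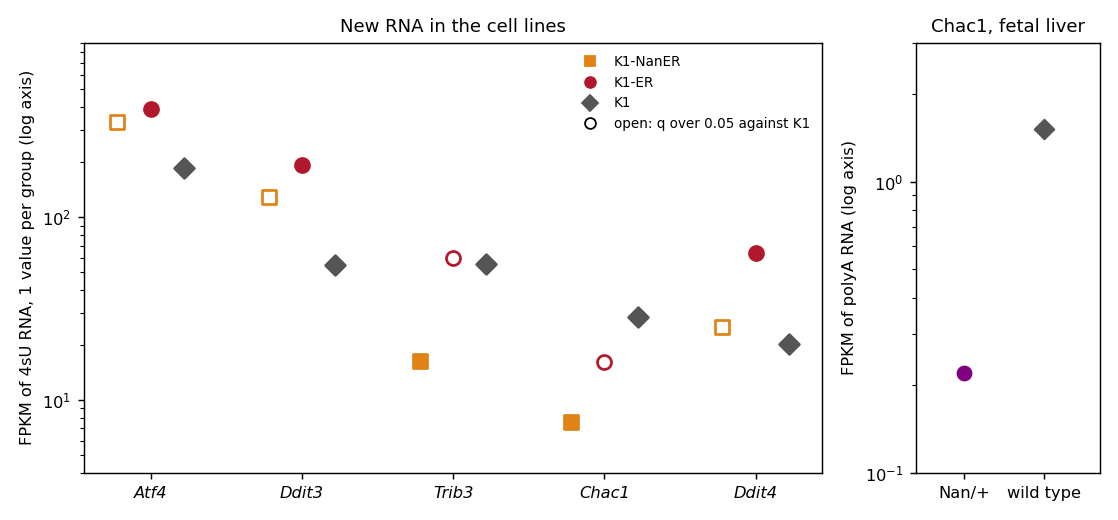
Levels of the 5 genes in K1-NanER, K1-ER and K1 cells (left, FPKM of 4sU RNA, log axis) and of Chac1 in Nan/+ and wild-type fetal liver (right, FPKM of polyadenylated RNA, log axis); each point is the authors' value for a group, and open symbols mark lines with q over 0.05 against K1. The K1-NanER point lies under the K1-ER point for all 5 genes, and for Trib3 and Chac1 it lies under K1 as well.

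Atf4, the transcription factor at the centre of the response (chromosome 15, 80085614 to 80087971, mm9), stood at 330 FPKM in K1-NanER, 389 FPKM in K1-ER and at 186 FPKM in K1 per the authors' deposited table. It was the most abundant of the 5 in every line. By the authors' deposited table its log2 fold change was 0.82 in K1-NanER (p = 0.0152, q = 0.142) and 1.06 in K1-ER (q = 0.0386), both over K1. Its level in K1-NanER was thus between those of K1-ER and K1. The length of the locus given for Atf4, 2358 bp, differs from that of the RefSeq gene.

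Ddit3 (chromosome 10, 126727849 to 126748842, mm9) was at 130 FPKM in K1-NanER, 192 FPKM in K1-ER and at 54.6 FPKM in K1 per the authors' deposited table. The log2 fold change over K1 per the authors' deposited table was 1.25 in K1-NanER (p = 0.0155, q = 0.143) and 1.82 in K1-ER (q = 0.0247). CHOP, its product, is a factor of the late, death-promoting phase of the stress response. The locus given for Ddit3 spans 20994 bp and its length differs from that of the RefSeq gene, whose neighbours in RefSeq are Mbd6 before it and Mars1, the methionyl-tRNA synthetase gene, after it. Neither neighbour has a row of its own in the 4sU or the liver table, and whether reads of a neighbour entered the Ddit3 value was not tested.

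Ddit4 (chromosome 10, 59412423 to 59414518, mm9) stood at 25.3 FPKM in K1-NanER, 63.9 FPKM in K1-ER and at 20.2 FPKM in K1 per the authors' deposited table. Only the K1-ER level stood apart from K1: the log2 fold change per the authors' deposited table was 0.32 in K1-NanER (p = 0.401, q = 0.745) and 1.66 in K1-ER (q = 0.00213). The p of Ddit4 in K1-ER, 5e-05, is the smallest that the authors' deposited table holds.

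Trib3 (chromosome 2, 152163161 to 152169796, mm9) was at 16.4 FPKM in K1-NanER, 60.1 FPKM in K1-ER and at 55.4 FPKM in K1 per the authors' deposited table. K1-ER and K1 lay close together, and K1-NanER lay 3.38-fold under K1. Its log2 fold change over K1 was -1.76 in K1-NanER (q = 0.00213) and 0.12 in K1-ER (p = 0.706, q = 0.910) per the authors' deposited table.

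Chac1 (chromosome 2, 119176978 to 119180062, mm9) stood at 7.62 FPKM in K1-NanER, 16.1 FPKM in K1-ER and at 28.5 FPKM in K1 per the authors' deposited table. It was the only member with a level under K1 in both lines. Its log2 fold change over K1 was -1.90 in K1-NanER (q = 0.00669) and -0.83 in K1-ER (p = 0.0291, q = 0.209) per the authors' deposited table.

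Counted together, 0 of 5 members rose and 2 fell in K1-NanER (47.4% and 28.3% of the table's genes did so), and 3 of 5 rose and 0 fell in K1-ER (37.9% and 11.5%), by the authors' test, whose program is not given in the sources used here. With a q of at most 0.01 Ddit4 alone passed in K1-ER, and the counts in K1-NanER stayed at 0 and 2. At an unadjusted p of at most 0.05, 2 members were higher in K1-NanER and 1 was lower in K1-ER. The median log2 fold change of the 5 was 0.32 in K1-NanER and 1.06 in K1-ER, against 1.04 and 0.72 over all genes of the table. The table holds called genes only, so its median is no neutral zero. Relative to it, Trib3 stood at -0.60 in K1-ER, and Atf4 and Ddit4 at -0.21 and -0.72 in K1-NanER, signs opposite to those given against K1; none of these was a call. The called rises in K1-ER were smaller relative to it, at 0.34 for Atf4, 1.10 for Ddit3 and 0.94 for Ddit4, and the called falls in K1-NanER larger, at -2.79 for Trib3 and -2.94 for Chac1. Both comparisons share the K1 libraries.

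**Figure D2:**
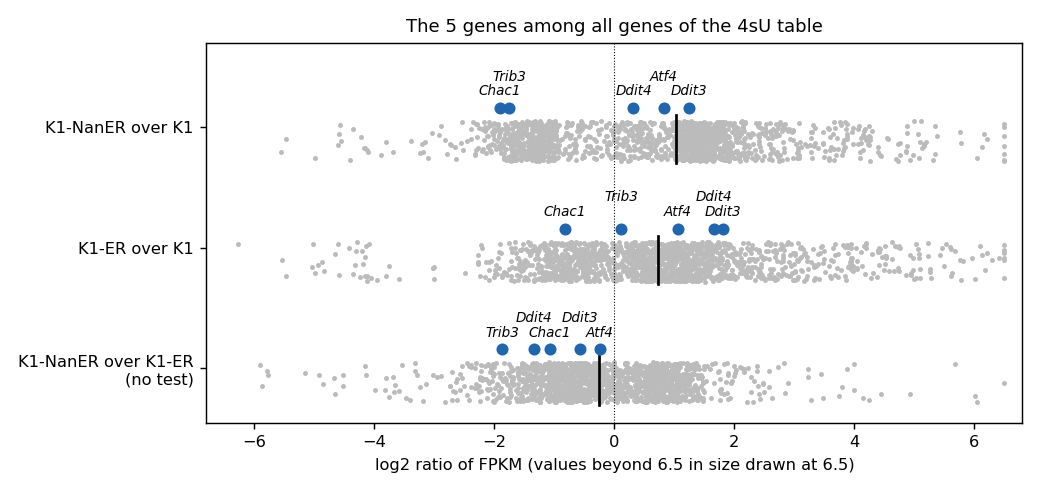
Log2 ratios of FPKM for all 1556 genes of the 4sU table (grey points, spread vertically for sight only; black bar, table median) and for the 5 stress response genes (blue). Chac1 and Trib3 lie at the low end of K1-NanER over K1, at -1.90 and -1.76, and all 5 genes lie under 0 in K1-NanER over K1-ER, where no test was made.

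K1-NanER and K1-ER were not tested against each other by the authors, and no test was possible on 1 value per group. Set side by side per the authors' deposited table, all 5 levels were lower in K1-NanER than in K1-ER, as were 55.7% of all genes of the table. The log2 ratio of K1-NanER over K1-ER was -1.87 for Trib3, -1.34 for Ddit4, -1.08 for Chac1, -0.57 for Ddit3 and -0.24 for Atf4, and the table's median was -0.26. In the whole table, 6.81% of genes had a lower ratio than Trib3 and 13.7% a lower one than Ddit4, while 50.6% had a lower one than Atf4. Esr1, whose ligand-binding domain both fusions carry, was at 70.3 FPKM in K1-NanER, 136 FPKM in K1-ER and at 2.41 FPKM in K1 per the authors' deposited table. The part of fusion level in these differences was not tested. Klf1 was not analysed here for want of a row.

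Levels per length can be ordered within a line. In K1-NanER the order was Atf4, Ddit3, Ddit4, Trib3 and Chac1, from 330 to 7.62 FPKM per the authors' deposited table. In K1-ER it was the same, with Ddit4 and Trib3 close at 63.9 and 60.1 FPKM. In K1 it was, per the authors' deposited table, Atf4, Trib3, Ddit3, Chac1 and Ddit4, with Trib3 and Ddit3 almost level at 55.4 and 54.6 FPKM. Without values per library, whether neighbours in these orders differ beyond replicate spread cannot be said.

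The genes most like each member were those nearest to it in the pair of log2 fold changes over K1, among the 1556 genes of the table, all of them with at least 1 FPKM in a group. This likeness rests on only 3 group values a gene, and both fold changes share K1. Atf4 was nearest to B3gnt2, Mettl2 and Thra, a thyroid hormone receptor gene. Ddit3 was nearest to Galns, a lysosomal sulphatase gene, to the G protein gene Gnai2 and to Vegfa, the vascular growth factor gene, which is also in the list of ATF4 and CHOP targets used below. Vegfa stood at 76.3 FPKM in K1-NanER, 123 FPKM in K1-ER and at 33.0 FPKM in K1 per the authors' deposited table.

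Ddit4 was nearest to the kinase gene Pim1, which stood at 215 FPKM in K1-NanER, 555 FPKM in K1-ER and at 166 FPKM in K1 per the authors' deposited table. Zfp78 and Smpd1, a sphingomyelinase gene, followed. Trib3 was nearest to Sssca1, Gtpbp6 and Znhit2, and Chac1 to Gm17751, Lcmt2 and Slc34a1, a phosphate transporter gene.

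In fetal liver Chac1 was lower in Nan/+ than in wild type. It was listed at 0.220 FPKM in Nan/+ livers and 1.52 FPKM in wild-type livers, a log2 fold change of -2.79 (q = 0.00447), per the authors' deposited table. With 1 FPKM added to both of these low levels the value was -1.05. Relative to the median of the liver table, which is no neutral zero, it was -4.04. Its level in wild-type liver was low: 14.2% of the table's genes had a lower one. In the table, which lists called genes only (100% called, 75.4% of them higher and 24.6% lower in Nan/+), 22 of 793 genes fell further than Chac1. Atf4, Ddit3, Trib3 and Ddit4 have no row in the liver table, which holds no gene with a log2 fold change under 1 in size or a q over 0.0498, and their liver levels were not analysed here.

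In bulk liver, fewer cells of a type and less RNA per cell cannot be told apart, and markers of other cell types moved between the same livers. All 7 neutrophil markers were higher in Nan/+, with a summed level of 2511 FPKM in Nan/+ and 425 FPKM in wild type, and 6 of 8 muscle markers were lower, with 1.75 FPKM in Nan/+ and 43.5 FPKM in wild type, per the authors' deposited table. Higher too were 3 of 6 mast cell and basophil markers (summed 9.46 FPKM in Nan/+ and 1.26 FPKM in wild type), 2 of 8 macrophage markers (79.9 and 38.0 FPKM), 2 of 6 megakaryocyte markers (635 and 250 FPKM) and 1 of 6 lymphoid markers (7.27 and 2.83 FPKM) per the authors' deposited table. None of the 8 erythroblast and none of the 8 hepatocyte markers has a row, and no listed marker was at 0. Xist, the RNA that coats an inactive X chromosome, was at 0.0400 FPKM in Nan/+ and 25.1 FPKM in wild type per the authors' deposited table. The part of cell makeup and of sex in the Chac1 value was not tested.

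Chac1 was thus lower with Nan in both settings: in K1-NanER against K1 after 4-hydroxytamoxifen, and in Nan/+ against wild-type liver. In K1-ER it was also under K1, at 16.1 against 28.5 FPKM (p = 0.0291, q = 0.209 by the authors' test). In liver both levels were low, at 0.220 FPKM in Nan/+ and 1.52 FPKM in wild type. In the cell lines the Nan factor was set against no KLF1 at all, and in liver against 2 normal alleles, so the fold changes are not measures of the same contrast.

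In the cell lines, cell type markers were read only among genes called in a line. Of 8 erythroblast markers 4 have a row: Alas2, Tfrc, Epor and Slc4a1, of which 2 rose in K1-NanER and 4 in K1-ER. Over the whole 4sU table, 47.4% of genes rose in K1-NanER and 37.9% in K1-ER. Their summed level was 279 FPKM in K1-NanER, 611 FPKM in K1-ER and at 158 FPKM in K1 per the authors' deposited table. The other marker lists had at most 1 row each. The part of erythroid maturation in the members' values was not tested.

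Peaks differed from member to member. Nan-KLF1 peaks had Trib3 and Ddit3 as nearest gene, KLF1 peaks Trib3, Ddit3, Atf4 and Ddit4, and no peak of either list had Chac1. That is 2 of 5 members with a Nan-KLF1 peak and 4 of 5 with a KLF1 peak, against 26.5% and 45.8% of all genes of the 4sU table. No member had more than 1 peak of a factor, and 1 is the median in both lists over genes with a peak. Folds are the authors' enrichment of ChIP over input, and with 1 pooled library a factor no peak has a replicate or a test.

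**Figure D3:**
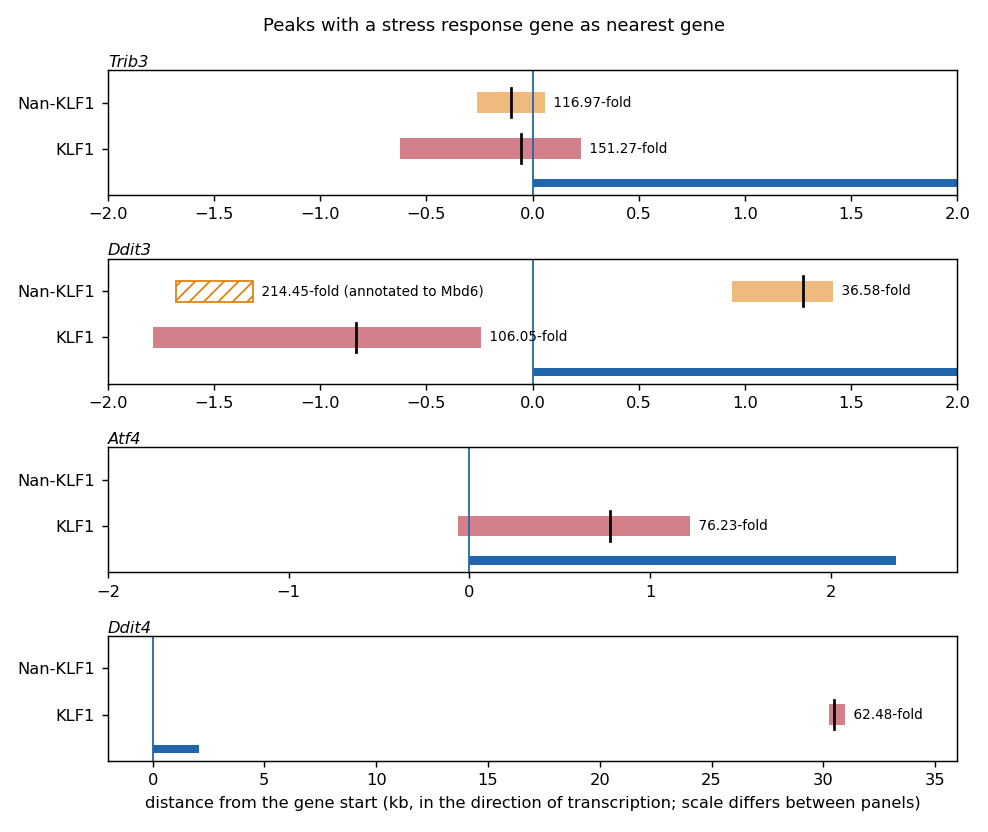
Peaks whose nearest gene is Trib3, Ddit3, Atf4 or Ddit4, by distance from the gene's start in kb (blue line, start; blue bar, locus to the panel's edge; black tick, summit; label, the authors' fold enrichment), with Nan-KLF1 above KLF1. Both factors lie over the Trib3 start, and at Ddit3 the KLF1 peak covers a Nan-KLF1 peak that the authors annotated to Mbd6 (hatched, summit not drawn).

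At Trib3 both factors had a promoter peak over the gene's start. The Nan-KLF1 peak (chromosome 2, 152169738 to 152170058, mm9) had a fold enrichment of 117, above 54.5% of its list, and its summit lay 102 bp before the start. The KLF1 peak (152169567 to 152170421) had a fold enrichment of 151, above 81.4% of its list, and its summit lay 57 bp before the start. The Nan-KLF1 peak lay wholly inside the KLF1 peak, the summits were 45 bp apart, and the authors' lists pair both peaks.

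The central motif of the Nan-KLF1 peak was CCCTACCC, held by 16 of 2758 peaks of that list (0.580%), and that of the KLF1 peak CCCAACCC, held by 58 of 5326 (1.09%). Both lie in the promoter shown above on the strand opposite to the gene, CCCTACCC from 104 to 97 bases and CCCAACCC from 99 to 92 bases before the start, and so share 3 bases. CCCCGCCC, the motif of more KLF1 peaks (16.4%), also matched there, from 109 to 102 bases before the start, and shares 3 bases with CCCTACCC. Over the same window of 250 bases on either strand, CCCTACCC was found in 1.74% and CCCAACCC in 2.73% of 32851 RefSeq promoters, and CCCCGCCC in 16.1%. A match is a description of the letters and shows no binding.

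At Ddit3 the factors' peaks lay apart. The Nan-KLF1 peak (chromosome 10, 126728786 to 126729265, mm9) lay inside the locus with its summit 1271 bp after the start, had a fold enrichment of 36.6, above only 1.60% of its list, and the central motif CCAAGCCC. The KLF1 peak (126726060 to 126727607) was annotated to the promoter, with its summit 833 bp before the start, a fold enrichment of 106, above 67.8% of its list, and no central motif. A gap of 1178 bp lay between them.

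The KLF1 peak at Ddit3 did overlap another Nan-KLF1 peak, by 361 bp. The authors annotated that peak (126726171 to 126726531) to Mbd6, the neighbouring gene that encodes a methyl-CpG-binding domain protein, with a fold enrichment of 214 and the central motif CCCTGCCC. The summits of this pair were 639 bp apart, and the authors' lists do not pair them. Nearest-gene annotation thus puts the stronger Nan-KLF1 peak of this shared promoter region under another name.

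Atf4 and Ddit4 had a KLF1 peak alone. At Atf4 the KLF1 peak (chromosome 15, 80085549 to 80086837, mm9) began 65 bp before the start, had its summit 777 bp after it and was annotated to an intron. Its fold enrichment was 76.2, near the list's median of 75.6, and its central motif CCCCGCCC. None of the 8 motifs searched was found in the 250 bases before the Atf4 start.

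The KLF1 peak at Ddit4 (chromosome 10, 59383556 to 59384271, mm9) was distal: its summit lay 30487 bp from the gene's start, beyond the gene's far end. Its fold enrichment was 62.5, above 37.2% of its list, and its central motif was CCACGCCC, held by 17.4% of KLF1 peaks. The same letters stand in the Ddit4 promoter shown above, from 117 to 110 bases before the start on the opposite strand, as in 4.79% of RefSeq promoters; no peak was listed there. Within 50 kb of the Ddit4 locus there was no Nan-KLF1 peak.

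Chac1 had no peak of its own, and within 50 kb of its locus there was no Nan-KLF1 peak and 1 KLF1 peak, which was annotated to Dll4, the Notch ligand gene, with a fold enrichment of 45.4. The C/EBP-ATF response element in its promoter lay from 193 to 186 bases before the start. No other member had an exact match to TGATGCAA in the promoter window searched, and 0.791% of RefSeq promoters had one. Variant forms of the element, and bases outside this window, were not searched. The CCCCGCCC of Chac1 lay from 39 to 32 bases before the start. This motif was found in 3 of 5 members' promoters (Trib3, Chac1 and Ddit4) and in 16.1% of all. CACCC was found in 2 of 5 members' promoters (Ddit3 and Trib3) and in 52.0% of all, and the wider form CCNCNCCC, which can overlap it, in 4 of 5 members and 45.9% of all.

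Expression and peaks did not follow 1 pattern over the 5 genes. Trib3, with a peak of both factors on its promoter, fell in K1-NanER and lay near its K1 level in K1-ER. Chac1, with no peak, fell in K1-NanER. Atf4 and Ddit4, with KLF1 peaks alone, rose in K1-ER. The Atf4 peak lay over the gene's start, and the Ddit4 peak was distal. Ddit3 rose in K1-ER too, with 1 peak of each factor by nearest gene. The KLF1 peak at Ddit3 also overlapped the 214-fold Nan-KLF1 peak that was annotated to Mbd6.

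The wider pathway was read from 10 lists of 177 further genes, of which 42 have a row in the 4sU table. In K1-NanER 14 of these rose and 15 fell, and in K1-ER 16 rose and 6 fell. In the table as a whole 47.4% of genes rose and 28.3% fell in K1-NanER, and 37.9% and 11.5% in K1-ER. These shares are the background for the 4sU counts of each list below. Of the 42 genes with a row, 12 had a Nan-KLF1 peak (28.6%, against 26.5% of all genes of the table) and 24 a KLF1 peak (57.1%, against 45.8%). Peaks of both factors were listed for 11, which is 91.7% of those with a Nan-KLF1 peak and 45.8% of those with a KLF1 peak, against 81.8% and 47.4% over all genes of the table.

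**Figure D4:**
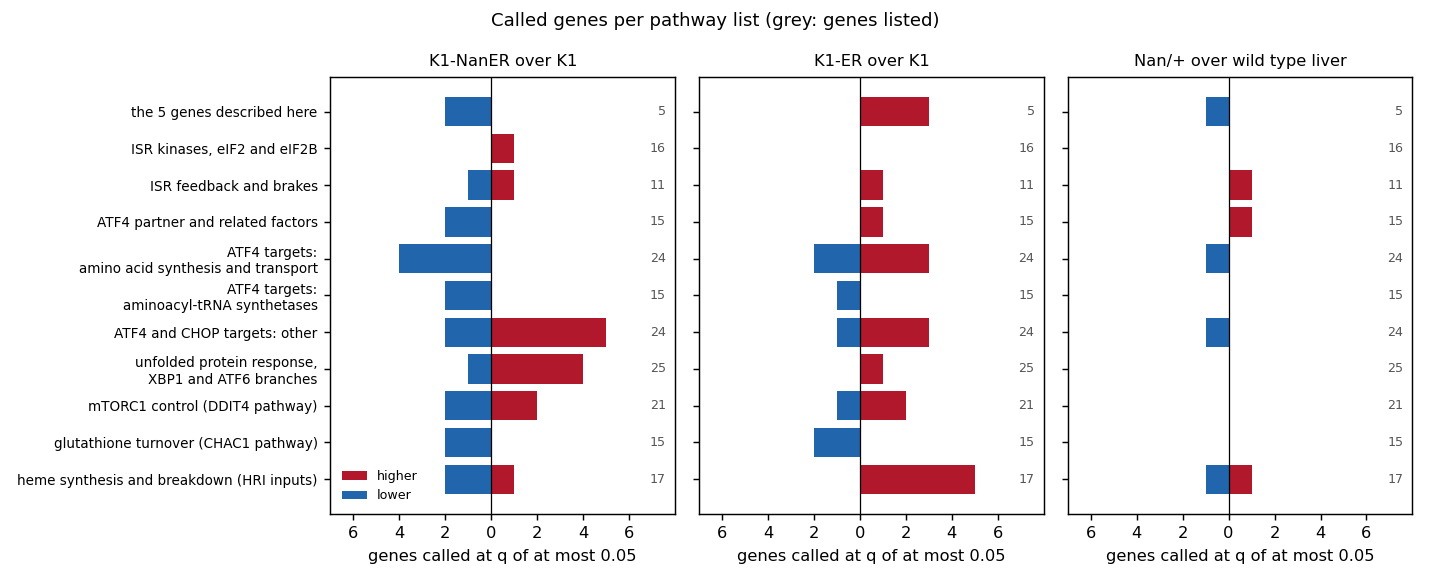
Number of genes of each pathway list that were higher (red, to the right) or lower (blue, to the left) at q of at most 0.05 in K1-NanER over K1, K1-ER over K1 and Nan/+ over wild-type liver, with the number of genes listed in grey. ISR stands for integrated stress response. Of 7 genes of amino acid supply with a 4sU row, 0 were higher and 4 lower in K1-NanER, and 3 higher and 2 lower in K1-ER. Among all genes of the 4sU table, the shares higher and lower were 47.4% and 28.3% in K1-NanER, and 37.9% and 11.5% in K1-ER.

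Among ATF4's targets in amino acid synthesis and transport (24 listed, 7 with a row), 0 rose and 4 fell in K1-NanER, and 3 rose and 2 fell in K1-ER, by the authors' test. At an unadjusted p of at most 0.05 the count of rises in K1-NanER was still 0. The 4 that fell in K1-NanER were Slc1a4, a neutral amino acid carrier, Slc7a11, the cystine importer that supplies glutathione synthesis, the serine enzyme Shmt2 and the glycine transporter Slc6a9. Shmt2 stood at 37.1 FPKM in K1-NanER, 76.7 FPKM in K1-ER and at 82.9 FPKM in K1, and Slc6a9 at 61.6, 112 and 120 FPKM in the same order, per the authors' deposited table. Like Trib3, both lay lower in K1-NanER and near K1 in K1-ER. By the authors' test, q in K1-NanER was 0.00213 for Slc1a4, 0.0104 for Shmt2, 0.0329 for Slc7a11 and 0.0498 for Slc6a9. At a q of at most 0.01, Slc1a4 alone of these falls passed.

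The glutamine carrier Slc1a5 rose in K1-ER, where it stood at 108 FPKM, against 18.2 FPKM in K1-NanER and against 29.7 FPKM in K1 per the authors' deposited table. Slc43a1, a carrier of branched-chain amino acids, also rose in K1-ER, at 117 FPKM, against 31.3 FPKM in K1-NanER and against 37.5 FPKM in K1 per the authors' deposited table. Slc1a4 fell in both lines, to 8.44 FPKM in K1-NanER and to 9.59 FPKM in K1-ER against 32.2 FPKM in K1 per the authors' deposited table. Slc7a11 fell in both as well, to 1.04 FPKM in K1-NanER and to 1.01 FPKM in K1-ER against 3.04 FPKM in K1, and the serine synthesis enzyme Phgdh rose in K1-ER, at 28.2 FPKM, with 17.4 FPKM in K1-NanER and with 12.7 FPKM in K1, per the authors' deposited table.

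Aminoacyl-tRNA synthetase genes, another ATF4 target class, gave 2 falls in K1-NanER and 1 in K1-ER, of 2 with a row and 15 listed. Tars stood at 26.5 FPKM in K1-NanER, 21.0 FPKM in K1-ER and at 63.6 FPKM in K1, and Vars, which fell in K1-NanER, at 38.2, 52.1 and 77.4 FPKM in the same order, per the authors' deposited table.

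Of 15 listed factors related to ATF4, 3 have a row, of which 2 fell in K1-NanER and 1 rose in K1-ER. Cebpb, which encodes a C/EBP partner of ATF4 and CHOP, fell to 17.0 FPKM in K1-NanER, with 43.6 FPKM in K1-ER and with 55.4 FPKM in K1, per the authors' deposited table. Atf6b, a relative of the stress sensor ATF6, fell to 14.8 FPKM in K1-NanER, with 26.3 FPKM in K1-ER and with 47.0 FPKM in K1, per the authors' deposited table. The proteasome regulator Nfe2l1 rose to 99.3 FPKM in K1-ER, with 56.5 FPKM in K1-NanER and with 33.7 FPKM in K1, per the authors' deposited table. In liver Cebpb was higher, at 10.4 FPKM in Nan/+ and 2.53 FPKM in wild type (log2 fold change 2.04, q = 0.00244) per the authors' deposited table.

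Of the feedback genes, Ppp1r15a, which encodes GADD34, the regulatory subunit that lets phosphatase 1 restore eIF2, rose in K1-ER to 904 FPKM, with 294 FPKM in K1-NanER and with 210 FPKM in K1, per the authors' deposited table. Its log2 fold change was 0.49 in K1-NanER (q = 0.541) and 2.11 in K1-ER (q = 0.00669) per the authors' deposited table. It had 1 Nan-KLF1 peak, in its coding sequence with a fold enrichment of 136, and 1 KLF1 peak, downstream of it with a fold enrichment of 110. Eif4ebp1, the translation repressor 4E-BP1, fell in K1-NanER to 56.0 FPKM, with 121 FPKM in K1-ER and with 124 FPKM in K1, per the authors' deposited table. The phosphatase subunit gene Ppp1cb rose in K1-NanER to 31.7 FPKM, with 23.3 FPKM in K1-ER and with 15.9 FPKM in K1, per the authors' deposited table.

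The kinases and eIF2 itself left few rows. Of 16 listed genes only Eif2s1, the alpha subunit of eIF2 that the kinases phosphorylate, has one, and it rose in K1-NanER to 19.7 FPKM, with 13.0 FPKM in K1-ER and with 8.74 FPKM in K1, per the authors' deposited table. Eif2ak1, the gene of the heme-regulated kinase, has no row in either table and had 1 KLF1 peak, distal, with a fold enrichment of 51.3 and the central motif CCACACCC.

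Of the genes of heme synthesis and breakdown (17 listed, 7 with a row), 1 rose and 2 fell in K1-NanER. In K1-ER 5 rose and 0 fell, and at an unadjusted p of at most 0.05 also 0 fell. Over the whole 4sU table, 47.4% of genes rose and 28.3% fell in K1-NanER, and 37.9% and 11.5% in K1-ER. Abcb10, a mitochondrial transporter needed for heme synthesis, stood at 222 FPKM in K1-NanER, 364 FPKM in K1-ER and at 104 FPKM in K1 per the authors' deposited table, with q = 0.0578 in K1-NanER. Slc25a38, the mitochondrial glycine carrier, rose in K1-ER to 208 FPKM, with 67.7 FPKM in K1-NanER and with 59.4 FPKM in K1, per the authors' deposited table. The porphyrin transporter gene Abcb6 fell in K1-NanER to 44.3 FPKM, with 83.0 FPKM in K1-ER and with 98.6 FPKM in K1, per the authors' deposited table. Blvrb fell there to 36.3 FPKM, with 81.2 FPKM in K1-ER and with 118 FPKM in K1, per the authors' deposited table. Alad rose in K1-ER to 54.2 FPKM, with 7.34 FPKM in K1-NanER and with 6.51 FPKM in K1. Alas2 rose in both lines, to 26.0 FPKM in K1-NanER and to 25.6 FPKM in K1-ER against 5.81 FPKM in K1, per the authors' deposited table. In liver Slc25a38 stood at 31.7 FPKM in Nan/+ and 76.1 FPKM in wild type, and Hmox1, the heme-degrading oxygenase, at 214 FPKM in Nan/+ and 63.9 FPKM in wild type, per the authors' deposited table, both called.

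The chaperone branches of the unfolded protein response (25 listed, 6 with a row) had 4 rises and 1 fall in K1-NanER and 1 rise in K1-ER. Crebrf, Pdia4 and Hsp90b1 rose in K1-NanER, with log2 fold changes of 1.78, 1.25 and 1.09 per the authors' deposited table. Herpud1, which serves the degradation of misfolded proteins and is also listed as an ATF4 target, fell there to 31.7 FPKM, with 62.2 FPKM in K1-ER and with 81.6 FPKM in K1, per the authors' deposited table. Dnajb11, a chaperone gene, was the 1 that rose in K1-ER, with a log2 fold change of 1.22 per the authors' deposited table.

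Around DDIT4's target mTORC1 (21 listed, 5 with a row), 2 genes rose and 2 fell in K1-NanER, and 2 rose and 1 fell in K1-ER. Sesn1, an inhibitor of mTORC1, and Txnip, which binds thioredoxin and REDD1, rose in both lines. Txnip stood at 67.8 FPKM in K1-NanER, 49.8 FPKM in K1-ER and at 23.1 FPKM in K1 per the authors' deposited table. Akt1s1, a subunit of mTORC1 that inhibits it, fell in K1-NanER to 34.8 FPKM, with 67.1 FPKM in K1-ER and with 108 FPKM in K1, per the authors' deposited table. Rictor, a subunit of mTORC2, fell in K1-ER to 10.5 FPKM, with 22.1 FPKM in K1-NanER and with 24.2 FPKM in K1, per the authors' deposited table.

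Of the genes of glutathione turnover, CHAC1's pathway (15 listed, 3 with a row), 2 fell in each line by the authors' test. At an unadjusted p of at most 0.05, 3 fell in K1-NanER, and 1 rose and 2 fell in K1-ER. Gpx1, which uses glutathione to reduce peroxides, stood at 20.5 FPKM in K1-NanER, where it fell, 284 FPKM in K1-ER and at 141 FPKM in K1 per the authors' deposited table, with q = 0.0504 in K1-ER. Gsr, which regenerates glutathione, fell in K1-ER to 41.1 FPKM, with 57.8 FPKM in K1-NanER and with 104 FPKM in K1, per the authors' deposited table. The third gene was Slc7a11, given above.

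The remaining ATF4 and CHOP targets (24 listed, 8 with a row) had 5 rises and 2 falls in K1-NanER, and 3 rises and 1 fall in K1-ER. Cdkn1a, Bbc3 and Vegfa rose in both lines, and p53 also drives Cdkn1a and Bbc3. Atg12, an autophagy gene, and Jhdm1d, a histone demethylase gene, rose in K1-NanER, with log2 fold changes of 1.47 and 1.43 per the authors' deposited table. Bcl2, which CHOP represses, was at 0.367 FPKM in K1-NanER (q = 0.0800), at the floor of 0.1 FPKM in K1-ER and at 7.74 FPKM in K1 per the authors' deposited table. In liver Nupr1, a stress-induced chromatin protein gene of the feedback list, was higher, at 7.12 FPKM in Nan/+ and 2.61 FPKM in wild type per the authors' deposited table. Slc43a1 was lower there, at 39.5 FPKM in Nan/+ and 91.1 FPKM in wild type, and so was Jhdm1d, at 6.68 FPKM in Nan/+ and 20.8 FPKM in wild type, per the authors' deposited table. With Cebpb, Hmox1 and Slc25a38 these were the 6 of the 177 genes with a row in the liver table, 3 of them higher and 3 lower in Nan/+. The 3 target lists together hold 63 genes, of which 17 have a 4sU row. Of these, 5 rose and 8 fell in K1-NanER, and 6 rose and 4 fell in K1-ER. Among all genes of the 4sU table, the shares that rose and fell were 47.4% and 28.3% in K1-NanER, and 37.9% and 11.5% in K1-ER.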

How the data were processed

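The authors' processed tables were used: per-group FPKM levels of 4sU RNA in 3 kinds of cell and of fetal liver RNA, each with log2 fold changes, p-values and q values of the authors' own comparisons, and 1 annotated peak list per factor. FPKM, the log2 fold change, the p-value and q value, the fold enrichment ratio of a peak and its rank, a score within its list, were deposited by the authors. Build mm9, MACS 1.4.2 and TopHat2 2.0.10 are named by the submitters' processing notes; the program behind levels and q values is not given in the sources used here. The tables give no counts, so depth is unknown and no model was fitted. A gene was called at a q of at most 0.05. The 4sU table lists only genes called in at least 1 line, and a level of 0 appears there as 0.1 FPKM.

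Rows and peaks were selected by gene name. Peaks that shared at least 1 bp were taken as overlapping. Gene starts were printed 1 higher than in the tables, since 3 of 5 loci then match the RefSeq length. Those of Atf4 and Ddit3 do not, and their peak distances rest on the printed starts. Gene strands were taken from RefSeq. Peak positions are as listed. Motifs were searched on both strands of the 250 bases before each RefSeq start (GRCm38.p6). The search was tested only with CACCC placed in random sequences of A and T. The mm9 genome was not used here. Python 3.11.15 and pandas 2.3.3 were used. The genes, lists and alternatives were chosen with earlier results of these data known. From each pathway list up to 4 called genes per comparison were named, those with the largest change, and Phgdh was named beside them. Each had at least 1 FPKM in the higher group. Likeness was the distance between pairs of log2 fold changes. The labels do not say whether K1 libraries came from separate cultures, or livers from separate litters.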

Additional observations from a re-analysis of the deposited data

How the results depend on the processing

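The number of members higher in K1-ER was 1 with a q of at most 0.01, against 3 at 0.05; the genes called over the whole table then numbered 638 in K1-NanER, 462 in K1-ER and 377 in liver. At an unadjusted p of at most 0.05, an alternative added after the data were seen, 1 member was lower in K1-ER and 2 were higher in K1-NanER. At a q of at most 0.05, asking also for a change of at least 2-fold left the member counts as they were. The log2 fold change of Chac1 in liver was -1.05 with 1 FPKM added to both levels and -2.34 with 0.1 added. Centring the 4sU table on its median turned no called member round and moved their sizes as given beside them. The K1-NanER level was under the K1-ER level in 5 members with 1 FPKM added and in 4 after centring. Counting every peak within 50 kb of a locus gave 6 Nan-KLF1 and 9 KLF1 peaks, and keeping only peaks at or above the median fold left 1 and 3. At a reciprocal overlap of 50%, 0 KLF1 peaks of members overlapped a Nan-KLF1 peak. No paired analysis was possible because the tables give 1 value per group, and for the same reason no replicate was left out.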
